A study of Mus musculus with 30 samples.

Results

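The 10 genes described here encode subunits of nicotinic acetylcholine receptors, mainly the muscle receptor, and the proteins that gather it under the motor nerve ending, and were taken by symbol from the 55487 genes of the gastrocnemius count table. They are 6 receptor subunit genes (*Chrna1*, *Chrnb1*, *Chrnd*, *Chrne*, *Chrng* and *Chrna2*) and 4 genes of the clustering pathway (*Lrp4*, *Musk*, *Dok7* and *Rapsn*). The set was selected on its counts in the same muscle libraries, with the earlier comparisons of CD, WD and WD + CHP known, so its values in muscle are a description and carry no test. The kidney table was not used to choose it, and the genes were tested there. Of the 10 genes, 9 passed the filter on low counts in gastrocnemius and 6 did in kidney, and the others are given by their counts.

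The libraries came from male wild-type (WT) C57BL/6J mice in 3 groups, and every group was kept at thermoneutrality (30 to 32 °C), beginning at 6 weeks of age. One group ate the chow diet (CD), one the western diet (WD), and one the WD together with CHP, the cyclic dipeptide cyclo(His-Pro), by gavage of 20 mg/kg, 3 times per week (WD + CHP). The CD and WD groups received water, diets and treatment began at Week 7, and tissue was taken at Week 24 after fasting for 3 h. Each group gave 5 gastrocnemius and 5 kidney libraries, 30 in all, with RNA prepared from each mouse, and whether a muscle and a kidney came from 1 mouse is not stated. The sample labels name frozen liver as the starting tissue and a NucleoSpin kit for the muscle libraries, whereas the study's methods name gastrocnemius and a Direct-zol kit. All 12 markers of fast muscle fibres passed the filter in the gastrocnemius libraries, as did 1 of 10 markers of the kidney proximal tubule, and *Slc22a6* of that list had 0 counts there. In the kidney libraries all 10 proximal tubule markers passed, as did 5 of the 12 fast fibre markers. The fast myosin genes *Myh2* and *Myh4* had 0 counts there. Total counts ranged from 50319024 to 53282969 in gastrocnemius and from 37189192 to 38211422 in kidney.

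At the neuromuscular junction the motor nerve releases acetylcholine onto the muscle fibre, where the receptor opens and lets the fibre contract. Innervated adult muscle makes the receptor from the α1, β1, δ and ε subunits, and fetal or denervated muscle uses γ in place of ε. The nerve also releases agrin, which binds LRP4, activates the kinase MuSK and its adaptor DOK7, and through the scaffold rapsyn gathers receptors under the nerve ending. Transcripts of many of these genes are made mainly by the few nuclei that lie under the synapse. Denervation spreads the expression of some of them along the fibre. The α2 subunit encoded by *Chrna2* belongs to the neuronal family of nicotinic receptors and is not part of the muscle receptor.

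In gastrocnemius, 3 of the 10 genes stood apart between WD and CD, beside 7.84% of all 15419 genes tested (the plot of CPM by library shows all 10). *Chrna2* (ENSMUSG00000022041, chr14:66135039-66152948) had a mean of 1.15 ± 0.863 CPM in CD and 6.49 ± 1.70 CPM in WD (SD, n = 5). *Dok7* (ENSMUSG00000044716, chr5:35056766-35087839) had 14.6 ± 1.11 CPM in CD and 21.1 ± 1.53 CPM in WD, and *Chrne* (ENSMUSG00000014609, chr11:70614883-70619216) had 16.9 ± 1.56 CPM in CD and 12.7 ± 1.82 CPM in WD. CPM is the gene's count per 1000000 counts of its library, whose total is adjusted by a factor (TMM) that centres most genes on no change. Coordinates are those of GRCm38 in GENCODE M21. The other receptor subunits and *Lrp4*, *Musk* and *Rapsn* overlapped between the groups. After CHP on the WD, *Chrna2* and *Dok7* stayed above and *Chrne* stayed below all 5 CD libraries. Muscle contains several fibre and cell types, and in bulk RNA a change in how many cells of a type there are and a change in RNA per cell cannot be told apart.

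Promoter sequence is shown for *Dok7* and *Chrne*, whose levels differed between WD and CD in opposite directions, and for *Chrng*, the fetal counterpart of *Chrne*. Each is the stretch of 250 bases before the gene's start in RefSeq (GRCm38.p6). For *Chrng* the RefSeq start lies inside the span that GENCODE gives the gene (chr1:87204657-87212694), and so does the stretch shown. Capitals mark the E-box CANNTG, the site that myogenic factors such as MyoD and myogenin can bind, and CCGGAA, the core of the N-box that Ets factors can bind at synaptic genes.
Dok7, chr5:35056516-35056765, plus strand: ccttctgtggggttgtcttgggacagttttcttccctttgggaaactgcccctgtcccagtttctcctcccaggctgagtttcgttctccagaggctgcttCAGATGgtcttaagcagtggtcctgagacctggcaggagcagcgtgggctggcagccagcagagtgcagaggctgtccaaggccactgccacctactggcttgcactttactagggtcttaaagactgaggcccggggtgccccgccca
Chrne, chr11:70619195-70619444, minus strand: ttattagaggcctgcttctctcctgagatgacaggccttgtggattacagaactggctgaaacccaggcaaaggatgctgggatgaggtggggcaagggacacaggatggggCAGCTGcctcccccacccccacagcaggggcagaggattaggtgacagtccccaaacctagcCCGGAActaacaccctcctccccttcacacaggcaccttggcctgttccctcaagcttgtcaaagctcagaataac
Chrng, chr1:87205561-87205810, plus strand: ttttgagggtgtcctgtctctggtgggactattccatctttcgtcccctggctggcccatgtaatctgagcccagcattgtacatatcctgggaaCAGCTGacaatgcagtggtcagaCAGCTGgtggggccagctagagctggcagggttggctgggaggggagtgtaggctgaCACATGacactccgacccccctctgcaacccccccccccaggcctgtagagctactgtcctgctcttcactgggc

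The motifs were searched on both strands in windows that run from 250 bases before the start to 50 after it. CAGCTG is 1 form of CANNTG, so each CAGCTG also counts as a CANNTG. The *Chrng* window held 3 CANNTG, 2 of them CAGCTG, at -155, -132 and -75 from the start. The *Chrne* window held 1 CAGCTG at -138 and 1 CCGGAA at -76. Of the 2 windows that RefSeq gives for *Dok7*, the one shown held 1 CANNTG at -149 and the other held none of the 3 motifs. *Chrna1*, *Musk* and *Chrnb1* had 3 CANNTG each, of which 2, 1 and 0 were CAGCTG, and none of these 3 windows held CCGGAA. Among all 32841 windows of this length, 72.3% held a CANNTG, 16.3% a CAGCTG and 14.9% a CCGGAA, so a CANNTG alone sets no window apart. The matches are letters in a window and were not tested as binding sites. *Chrna2*, *Chrnd*, *Rapsn* and *Lrp4* were not analysed here for sequence.

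**Figure D1:**
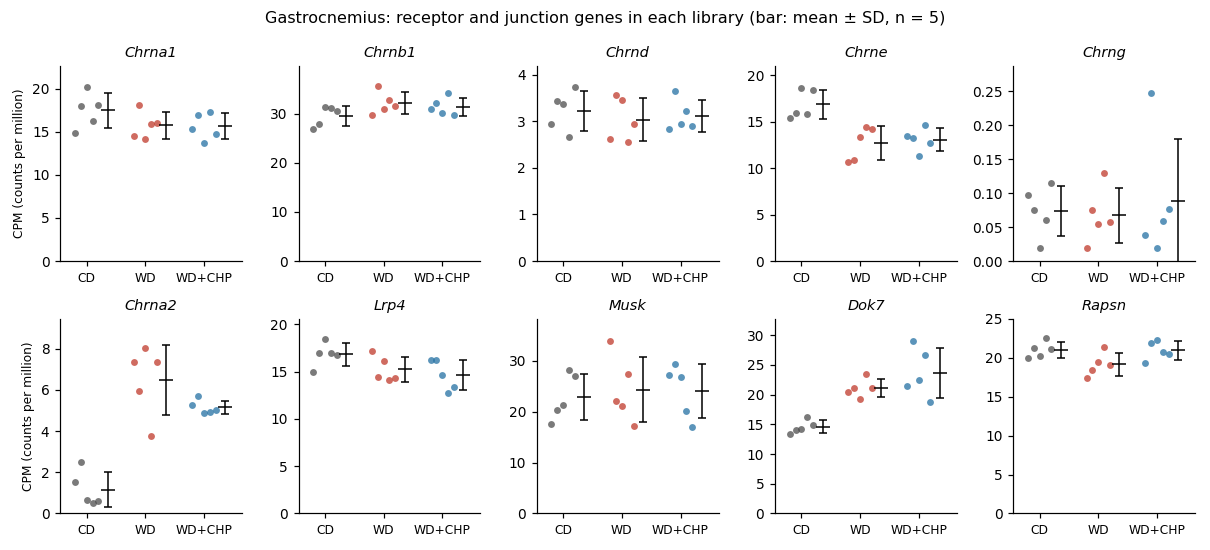
CPM of the 10 genes in each gastrocnemius library (points, 5 per group) with the group mean ± SD (bars), on axes that start at 0. *Chrna2* and *Dok7* sit higher and *Chrne* lower in WD and WD + CHP than in all 5 CD libraries, and the other 7 genes overlap between the groups.

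The α1, β1 and δ subunits are common to the fetal and the adult muscle receptor, and none of the 3 genes separated the groups. *Chrna1* encodes the subunit that carries most of the acetylcholine binding site (chr2:73563215-73580338, minus strand). Its CD libraries held 14.9, 18.0, 20.2, 16.3 and 18.2 CPM. In WD they held 14.5, 18.1, 14.2, 15.8 and 16.0 CPM, and in WD + CHP 15.4, 17.0, 13.7, 17.3 and 14.7 CPM. The lowest and the highest libraries of the 3 groups thus interleave, and the log2 fold change in WD vs. CD was -0.15 with a standard error of 0.087.
*Chrnb1* (chr11:69784036-69795943, minus strand) encodes the β1 subunit, through which rapsyn holds the receptor. The 5 CD libraries lay at 27.0, 27.9, 31.5, 31.2 and 30.6 CPM. The WD libraries lay at 29.7, 35.7, 31.0, 32.7 and 31.7 CPM, and the WD + CHP libraries at 31.0, 32.2, 30.2, 34.2 and 29.7 CPM. CD replicates 3, 4 and 5 fall inside the WD range, and the log2 fold change was 0.12 (standard error 0.060), with a 95% interval of -0.01 to 0.25.
*Chrnd*, the δ subunit gene (chr1:87190607-87200070, plus strand), was counted 131 to 195 times per CD library, 138 to 191 times per WD library and 146 to 192 times per WD + CHP library. Its CD, WD and WD + CHP means of 3.23 ± 0.428, 3.04 ± 0.468 and 3.11 ± 0.338 CPM (SD, n = 5) lay within 1 SD of each other. The interval of its log2 fold change in WD vs. CD, -0.34 to 0.16, covers changes of either sign.

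The ε subunit replaces γ in the receptor as a muscle matures, so *Chrne* and *Chrng* were read side by side. *Chrne* lay at 15.4, 15.9, 18.7, 15.9 and 18.5 CPM in CD. It lay at 10.7, 10.9, 13.3, 14.4 and 14.3 CPM in WD and at 13.5, 13.3, 11.3, 14.7 and 12.7 CPM in WD + CHP. The highest WD and WD + CHP libraries are below the lowest CD library, and the 2 WD groups overlap. The log2 fold change of *Chrne* was -0.41 (standard error 0.095, 95% interval -0.61 to -0.21) in WD vs. CD and 0.04 (0.095, -0.16 to 0.24) in WD + CHP vs. WD. A gene on the opposite strand, *4930544D05Rik*, overlaps *Chrne* without sharing an exon base, and the strand setting of the counting is not given in the sources used here.
*Chrng* (chr1:87204657-87212694, plus strand) was at the edge of detection and did not pass the filter. The CD libraries held 5, 4, 1, 3 and 6 counts, the WD libraries 1, 4, 3, 7 and 3, and the WD + CHP libraries 2, 13, 1, 3 and 4. WD + CHP replicate 2 alone exceeded 7 counts.
*Chrng* made up 0.436% of the summed *Chrng* and *Chrne* counts in CD (19 of 4356, exact 95% binomial interval 0.263% to 0.680%). Its share was 0.527% (0.313% to 0.832%) in WD and 0.673% (0.427% to 1.01%) in WD + CHP. The intervals cover counting error only and hold no spread between mice, and the shares are given as a description. Without WD + CHP replicate 2, whose own share was 1.83%, the mean share of the WD + CHP libraries was 0.364% in place of 0.658%.

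*Chrna2*, the neuronal α2 subunit gene, showed the widest difference of the 10. Its CD libraries held 1.51, 2.52, 0.662, 0.489 and 0.595 CPM, from 24 to 133 counts. The WD libraries held 7.36, 5.96, 8.02, 3.77 and 7.37 CPM, and the WD + CHP libraries 5.24, 5.68, 4.89, 4.94 and 5.04 CPM. CD replicates 1 and 2 are the highest of their group, and WD replicate 4, the lowest of its own, still lies above both. The log2 fold change was 2.48 (standard error 0.33, 95% interval 1.79 to 3.17) in WD vs. CD. Leaving out 1 library at a time gave 2.29 to 2.99. It was -0.33 (0.28, -0.93 to 0.27) in WD + CHP vs. WD, and the WD + CHP libraries all fall within the WD range. The spread also differed, with a coefficient of variation of 74.8% in CD against 26.2% in WD and 6.26% after CHP, which was not tested.
Fibre type markers stood higher or lower beside *Chrna2*, *Dok7* and *Chrne*, and their part in these results was not tested. Slow fibres carry their own myosin and troponin isoforms. All 9 slow fibre markers (*Myh7*, *Tnni1*, *Tnnt1* and others) had a log2 fold change above 0 in WD vs. CD, at a median of 0.61, with 0 past an adjusted p of 0.05 and 5 at an unadjusted p under 0.05 (edgeR). Their summed level ranged from 594 to 1632 CPM in CD, against 817 to 2896 in WD and 977 to 1612 after CHP, so these groups overlap, and none of the 9 was at 0. Of 12 fast fibre markers, 10 lay below 0 in the same comparison (median -0.16), with 1 past the adjusted threshold and 8 at an unadjusted p under 0.05. Over all 15419 genes, 8.63% passed the adjusted threshold in this comparison and 3662 had an unadjusted p under 0.05 (edgeR).

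**Figure D2:**
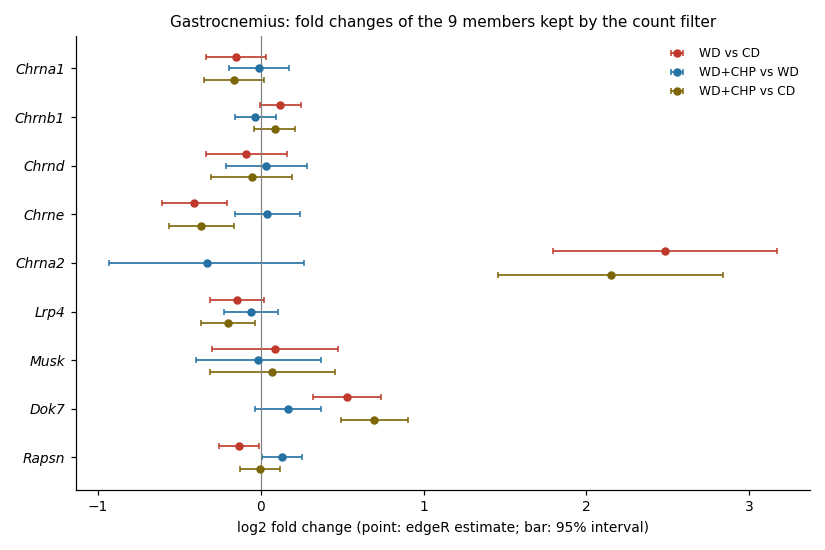
log2 fold change of the 9 genes that passed the filter (points, edgeR estimate; bars, 95% interval) in the 3 comparisons of gastrocnemius groups. *Chrna2* lies at 2.48 in WD vs. CD and 2.15 in WD + CHP vs. CD, *Dok7* and *Chrne* lie on opposite sides of 0 in both, and all estimates in WD + CHP vs. WD lie between -0.33 and 0.17.

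In the clustering pathway, the adaptor *Dok7* was the 1 gene of 4 that separated the groups. *Lrp4*, the agrin receptor (chr2:91457511-91513779, plus strand), lay at 15, 17.0, 18.4, 17.0 and 16.8 CPM in CD. The gene was at 17.1, 14.5, 16.1, 14.1 and 14.4 CPM in WD and at 16.2, 16.2, 14.7, 12.7 and 13.4 CPM in WD + CHP. Some WD libraries were below every CD library and others within the CD range, with a log2 fold change of -0.14 (standard error 0.078, 95% interval -0.31 to 0.02).
*Musk*, the kinase at the centre of the pathway (chr4:58285960-58374303, plus strand), varied most among the libraries of a group in this pathway, with a coefficient of variation of 19.7% to 26.5%. The CD libraries held 17.7, 20.3, 21.4, 28.2 and 27.0 CPM, the WD libraries 33.9, 22.1, 21.1, 27.3 and 17.2, and the WD + CHP libraries 27.2, 29.3, 26.8, 20.2 and 16.9. The 3 groups overlap over most of their ranges, WD reaches highest, and the interval of the log2 fold change in WD vs. CD was -0.30 to 0.47.
*Dok7*, which binds and activates MuSK from inside the fibre, held 13.3, 14.1, 14.3, 16.3 and 14.9 CPM in CD. It held 20.5, 21.1, 19.2, 23.4 and 21.1 CPM in WD and 21.4, 29.0, 22.4, 26.7 and 18.7 CPM in WD + CHP. The lowest of the 10 WD and WD + CHP libraries, at 18.7 CPM, is above the highest CD library, at 16.3. The log2 fold change of *Dok7* was 0.53 (standard error 0.098, 95% interval 0.32 to 0.74) in WD vs. CD and 0.17 (0.097, -0.04 to 0.37) in WD + CHP vs. WD.
*Rapsn*, the scaffold that ties the receptor to the cytoskeleton (chr2:91035620-91045729, plus strand), had the lowest coefficient of variation of any gene and group of the set in gastrocnemius, 4.78% in CD. Its libraries lay at 19.9, 21.2, 20.2, 22.5 and 21.2 CPM in CD. The scaffold gene lay at 17.4, 18.4, 19.5, 21.4 and 19.0 CPM in WD and at 19.3, 21.9, 22.3, 20.7 and 20.5 CPM in WD + CHP. WD held the 3 lowest values of the 15, and the groups overlap, with log2 fold changes of -0.13 (95% interval -0.26 to -0.01) in WD vs. CD and 0.13 (0.01 to 0.25) in WD + CHP vs. WD. *Gm13778*, on the opposite strand, shares 4 exon bases with *Rapsn*.

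Set against all genes tested, the members' calls are a description, because the members were chosen with these comparisons known. With edgeR's quasi-likelihood F test and an adjusted p under 0.05, 3 of 9 passed in WD vs. CD, beside 8.63% of all 15419 genes. *Chrna2* and *Dok7* were the higher ones, beside 4.67% of all genes higher, and *Chrne* the lower one, beside 3.96% lower. The same 3 did not overlap between the groups, beside 7.84% of all genes. In WD + CHP vs. WD, 0 of the 9 passed with edgeR, DESeq2 or limma-voom, beside 0.409% of all genes with edgeR, and 0 separated the groups, beside 2.83%. In WD + CHP vs. CD, which shares its libraries with the other 2 comparisons, *Chrna2* (log2 fold change 2.15), *Dok7* (0.70) and *Chrne* (-0.37) passed, beside 9.40% of all genes (4.85% higher, 4.55% lower), and the same 3 did not overlap, beside 8.75%. Removing any of CD replicates 3 and 5 or WD + CHP replicates 3 and 5 ended the *Chrne* call there, at -0.32 to -0.35. The medians over the 9 genes were -0.09, -0.01 and 0.00 in the 3 comparisons, and over all genes 0.00, -0.01 and -0.01. Scaled by total count alone, *Chrnb1* also passed in WD vs. CD, at 0.19, beside 1852 of all 15419 genes under that scaling.

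Levels of different genes were compared per kilobase of exon (RPKM, CPM divided by the gene's merged exon length). In CD, *Chrnb1* and *Rapsn* led at 11.7 RPKM each and overlapped, followed by *Chrne* at 9.98, *Musk* at 6.07, *Chrna1* at 3.99 and *Dok7* at 3.41. *Chrna1* and *Dok7* did not separate in CD. *Lrp4* (1.60), *Chrnd* (0.983), *Chrna2* (0.305) and *Chrng* (0.0177) came last, each apart from its neighbours. In WD, *Dok7* (4.93 RPKM) lay above every library of *Chrna1* (3.58) and overlapped *Musk* (6.44), which overlapped *Chrne* (7.52). *Chrna2* passed from below *Chrnd* in CD to 1.71 RPKM in WD and 1.36 RPKM in WD + CHP, and overlapped *Lrp4* in both. All its WD + CHP libraries lay above those of *Chrnd*, and the lowest WD library (0.994) fell within the *Chrnd* range. Exon lengths merge all GENCODE transcripts of a gene, so a gene with a rarely used long exon is placed too low.

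**Figure D3:**
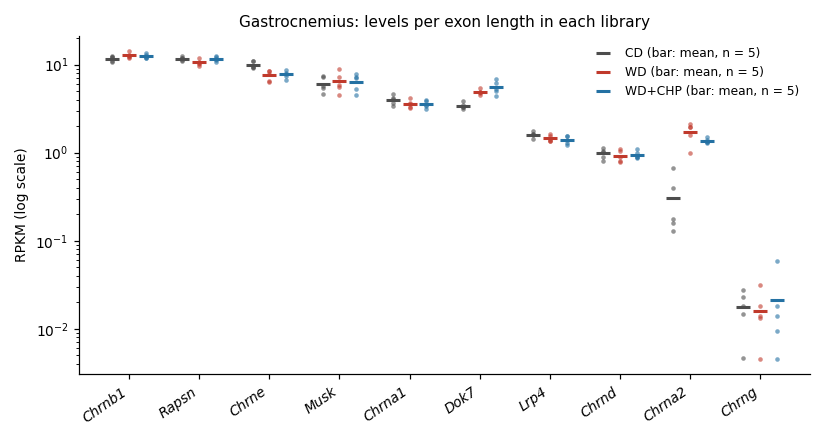
RPKM of the 10 genes in each gastrocnemius library (points) and group means (bars) on a log axis, ordered by the CD mean. The order runs from *Chrnb1* at 11.7 RPKM to *Chrng* at 0.0177 RPKM in CD, and *Chrna2* is the gene that changes place most, from 0.305 RPKM in CD to 1.71 RPKM in WD.

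Around the receptor, 95 further genes of the junction were listed by their known roles, with earlier results of these libraries in view, of which 72 passed the filter and were tested over all genes. They comprise synaptic partners of the receptor, nerve terminal genes, other cholinergic receptors, genes of the denervation response and glycosylation genes that underlie inherited myasthenia. In WD vs. CD, 6 rose and 4 fell (adjusted p under 0.05, edgeR), 13.9% of the 72 beside 8.63% of all genes, and the median log2 fold change was -0.02. As the list was drawn up with such results known, its share is a description. Scaled by total count alone, 13 passed, of which 11 were higher and 2 lower. Under that scaling 1852 of all 15419 genes passed, 1506 of them higher and 346 lower. With at least 10 counts required in every library, 8 junction genes passed, 4 higher and 4 lower.
Among 40 synaptic partners, *Nes* and *Crk* rose and *Colq* and *Pak1* fell. *Nes* encodes nestin, an intermediate filament that gathers at the junction, and lay at 61.6 ± 4.94 CPM in WD and 48.5 ± 2.30 in CD (SD, n = 5; log2 fold change 0.35, edgeR adjusted p = 0.0020). *Crk*, an adaptor recruited by DOK7, rose by less (0.24, adjusted p = 0.0039 with edgeR), with no overlap between the groups. *Colq*, the collagen tail that anchors acetylcholinesterase in the synaptic cleft, lay at 8.97 ± 0.796 CPM in WD and 11.6 ± 1.14 in CD (-0.37, edgeR adjusted p = 0.0077). *Pak1*, a kinase activated downstream of MuSK, lay at 19.5 ± 2.39 CPM in WD and 29.5 ± 2.93 in CD, and every WD library was below every CD library (-0.59, edgeR adjusted p = 0.0022).
The ligand *Agrn* (0.20, edgeR adjusted p = 0.058) and the enzyme *Ache* (-0.28, adjusted p = 0.064) did not pass the threshold with edgeR. Both passed with DESeq2 (adjusted p = 0.038 for *Agrn* and 0.036 for *Ache*), and *Agrn* under total count scaling (0.024). *Agrn* also passed when CD replicate 2 (edgeR adjusted p = 0.026) or WD replicate 1 (0.044) was removed, and *Ache* without CD replicate 1 or 2 (0.040 and 0.024). Over all alternatives the adjusted p ranged from 0.024 to 0.13 for *Agrn* and from 0.024 to 0.15 for *Ache*.

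The largest change in the nerve terminal list was that of *Slc5a7*, the choline transporter of cholinergic endings. Its CD libraries held 0, 2, 9, 0 and 0 counts, the WD libraries 66, 44, 43, 23 and 35, and the WD + CHP libraries 4, 16, 7, 19 and 5. All 5 WD libraries exceeded every library of the other groups, and WD + CHP overlapped CD. The gene passed the filter on low counts through its WD libraries, the group where it is high. It drops out when every library must hold at least 10 counts, and its p-values carry that limit. The log2 fold change was 4.14 in WD vs. CD (standard error 0.64, adjusted p = 0.00089 with edgeR), and 6.04 without CD replicate 3, which held 9 of the 11 CD counts. A fitted fold against so few counts depends on the prior count of the model. It was -2.0 (0.50) in WD + CHP vs. WD, with an adjusted p of 0.12 in edgeR and 0.025 in DESeq2, and the adjusted p ranged from 0.025 to 0.27 over all alternatives.
The other cholinergic gene to pass was *Chrna4*, a neuronal α subunit, at 1 to 4 counts per CD library, 6 to 24 per WD library and 6 to 19 per WD + CHP library. Its log2 fold change was 2.20 in WD vs. CD (standard error 0.54, adjusted p = 0.017 with edgeR). *Chrna4* too passed the filter only through the groups where it is high, WD and WD + CHP. It also drops out when every library must hold at least 10 counts.
Adipocyte and Schwann cell markers were read beside *Slc5a7*, and their part in the result was not tested. Of 10 adipocyte markers, 6 rose and 1 fell in WD vs. CD, with *Lep* at 3.96 (adjusted p = 5.4e-05, edgeR) and *Cidec* at 1.38 (adjusted p = 0.00023, edgeR) among those that rose and *Cfd* at -1.59 (adjusted p = 0.00055, edgeR) as the one that fell, and 4 fell in WD + CHP vs. WD. CD libraries held 138 to 215 CPM of them in sum, WD libraries 204 to 251 and WD + CHP libraries 129 to 198, and none was at 0. Schwann cell markers ranged in sum from 97.7 to 237 CPM in CD, from 87.5 to 289 in WD and from 108 to 194 after CHP. In WD vs. CD, all 11 of these lay above 0 (median 0.38), with 0 past the adjusted threshold and 2 at an unadjusted p under 0.05 (edgeR). All 11 lay below 0 in WD + CHP vs. WD (median -0.34), with 0 past either threshold. Over all 15419 genes, 8.63% passed the adjusted threshold in WD vs. CD and 0.409% in WD + CHP vs. WD. An unadjusted p under 0.05 was reached by 3662 and 1929 of them (edgeR).

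**Figure D4:**
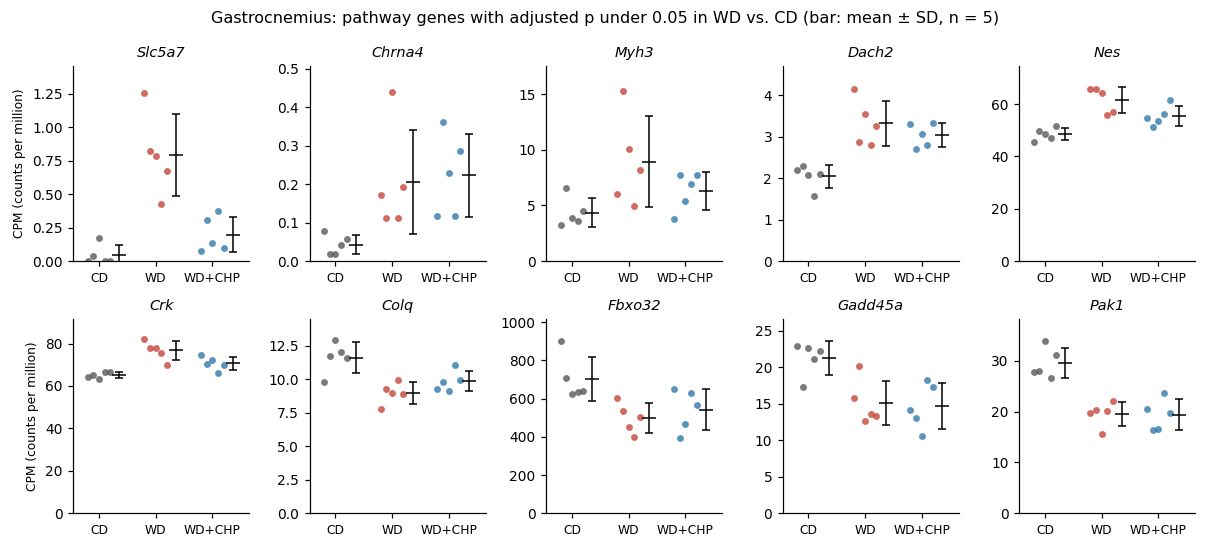
CPM of the 10 junction genes outside the set that passed in WD vs. CD, in each gastrocnemius library (points), with the group mean ± SD (bars), on axes that start at 0. *Slc5a7* is high in WD alone, while *Pak1* and *Gadd45a* lie as low in WD + CHP as in WD.

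Genes of the denervation response did not move as 1 group, with 2 rising and 2 falling among 17 tested in WD vs. CD (23.5%, beside 8.63% of all genes) and a median log2 fold change of -0.04. *Dach2*, a corepressor of *Myog*, lay at 3.32 ± 0.551 CPM in WD and 2.04 ± 0.281 in CD (SD, n = 5), with no overlap (0.70, edgeR adjusted p = 0.0022). *Myh3*, the embryonic myosin heavy chain, rose from 4.35 ± 1.31 to 8.91 ± 4.09 CPM (1.03, edgeR adjusted p = 0.030). *Gadd45a* fell by 0.49 on the log2 scale (edgeR adjusted p = 0.041) and *Fbxo32*, the muscle ubiquitin ligase atrogin-1, fell by 0.49 (edgeR adjusted p = 0.039).
The last 3 calls were close to the threshold and were lost when single libraries were left out and under other settings. *Myh3* was lost when any of CD replicates 1, 3, 4 and 5 or WD replicates 2 and 3 was removed, at 0.75 to 1.05 (adjusted p 0.056 to 0.082, edgeR; 0.0047 to 0.082 over all alternatives). Of the 10 leave-one-out fits, *Gadd45a* was kept only without CD replicate 2 or WD replicate 2, and lay at -0.51 to -0.44 in the 8 fits that lost it (adjusted p 0.068 to 0.097, edgeR; 0.011 to 0.097 over all alternatives). Of the same 10 fits, *Fbxo32* was kept only without CD replicate 3 or WD replicate 1, and lay at -0.52 to -0.39 in the other 8 (adjusted p 0.051 to 0.097, edgeR; 0.0083 to 0.097 over all alternatives). With all libraries, *Gadd45a* was also lost under total count scaling (edgeR adjusted p = 0.052), with no filter (0.054) and with the replicate block (0.067). *Fbxo32* was lost under total count scaling (edgeR, 0.052), and *Myh3* with limma-voom (0.051) and with only the 2 groups compared (edgeR, 0.0505).
*Myog*, the myogenic factor that rises after denervation, lay at 0.43 (edgeR adjusted p = 0.21) and the adhesion gene *Ncam1* at 0.15 (0.47), and neither passed. *Etv5*, the Ets factor of synaptic genes, lay at -0.28 (edgeR adjusted p = 0.096), and *Erbb3*, a neuregulin receptor, at -0.07 (0.76). The 5 glycosylation genes lay between -0.06 and 0.05.

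Added to the WD, CHP moved 0 of the 72 junction genes past an adjusted p of 0.05 with edgeR or limma-voom, beside 0.409% of all genes with edgeR. With DESeq2 it moved 1, *Slc5a7*, beside 249 of all 15419 genes with that tool. At an unadjusted p under 0.05 there were 10 of 72, beside 1929 of all 15419 genes, a similar share. *Sntb1* did not pass with all 3 groups in the model, but passed with edgeR on only the 2 groups compared. Its WD + CHP libraries (4.66 to 6.53 CPM) all lay below its WD libraries (7.10 to 8.29 CPM), and 2.83% of all genes separated these groups. Beside *Slc5a7* at -2.0, the other pathway genes that had passed in WD vs. CD stood at -0.15 (*Nes*), -0.12 (*Crk*), 0.13 (*Colq*), -0.01 (*Pak1*), -0.13 (*Dach2*), -0.50 (*Myh3*), -0.04 (*Gadd45a*), 0.12 (*Fbxo32*) and 0.12 (*Chrna4*) in WD + CHP vs. WD. Whether these differ from their changes in WD vs. CD was not tested, as both comparisons share the WD libraries.
Between WD + CHP and CD, 3 rose and 5 fell, 11.1% of the 72 beside 9.40% of all genes. Total count scaling gave 5 higher and 4 lower, beside 823 higher and 571 lower of all 15419 genes. *Chrna4* (2.32, adjusted p = 0.013), *Dach2* (0.57, adjusted p = 0.0091) and *Myod1* (0.45, adjusted p = 0.034) rose with edgeR. *Sntb1*, the β1-syntrophin of the dystrophin complex, fell most (-1.02, adjusted p = 0.0024), from 10.8 ± 3.88 CPM in CD to 5.32 ± 0.772 in WD + CHP (SD, n = 5; edgeR). *Pak1* (-0.60, adjusted p = 0.0023), *Gadd45a* (-0.53, 0.028), *Hdac9* (-0.42, 0.0073) and *Syne2* (-0.20, 0.022), which anchors nuclei to the cytoskeleton, also fell with edgeR.
Removing any of CD replicates 1, 3 and 5 or WD + CHP replicates 2, 3 and 5 ended the *Myod1* call, at 0.37 to 0.48 (adjusted p 0.051 to 0.10, edgeR). That of *Gadd45a* ended with the removal of any of CD replicates 1, 3, 4 and 5 or WD + CHP replicates 1 to 3, at -0.53 to -0.44 (adjusted p 0.052 to 0.072, edgeR), and that of *Syne2* without WD + CHP replicate 2 or 4, at -0.19 and -0.18. With all libraries, the *Syne2* call also ended under total count scaling (-0.18, edgeR adjusted p = 0.077) and with no filter (-0.20, 0.058), and that of *Myod1* with the replicate block (0.45, 0.060), under which 2 junction genes were higher and 6 lower. In WD vs. CD, *Myod1* passed without WD replicate 5 (0.42) and *Sntb1* without CD replicate 1 (-0.60).

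Within groups, the 9 genes did not vary together as a block. Over the 15 gastrocnemius libraries, with each group's mean removed from log2 CPM, the 36 pairs of members had Pearson correlations from -0.61 (*Chrna2* and *Chrnb1*) to 0.78 (*Chrna1* and *Chrnb1*), with a median of 0.13 and 22 pairs above 0. These libraries share their scaling, so the values are descriptions.
For each gene the most alike of 10809 other genes was sought in the same way. *Chrna2* was followed closest by *BC048679* (r = 0.94, Spearman's rho 0.92), *Acaa2* (0.93, 0.80), a mitochondrial enzyme of fatty acid oxidation, and *Anxa5* (0.92, 0.78). Without the 2 libraries farthest from the *Chrna2* median, r was 0.92, 0.91 and 0.89. *Dok7* was followed by *Hr* (0.86), *Rab7* (0.81) and *Mtx3* (0.81), and *Chrne* by *Gosr2* (0.89), *Crym* (0.88) and *Pola2* (0.85).
*Ccdc57* was the closest gene to both *Chrna1* (0.88) and *Chrnb1* (0.88). *Musk* was closest to *Hsd17b7* (0.93), *Lrp4* to *Atad1* (0.92), *Rapsn* to *Hypk* (0.87) and *Chrnd* to *Irf7* (0.83). Each is the highest of 10809 values, so an r of this size is not in itself a result.

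In kidney, where the muscle receptor has no known junction, 6 of the 10 genes passed the filter and none of them passed the test between groups. *Lrp4*, which also serves in kidney development, had the highest level per length (2.99 RPKM in CD), with CD libraries at 31.5 ± 2.26 CPM, WD libraries at 31.9 ± 1.96 and WD + CHP libraries at 31.4 ± 3.05 (SD, n = 5). That is above its level in gastrocnemius, where no library exceeded 18.4 CPM, although the 2 tissues were scaled separately. *Chrnb1* came next per length, at 2.13 RPKM in CD, and lay at 4.66 to 6.11 CPM over the 15 kidney libraries. *Chrnd* had 0 counts in every kidney library, which allows up to 0.0158 to 0.0160 CPM in a group, unscaled by TMM (3 counts over its 5 libraries, counting error only). *Chrng* had at most 1 count, *Musk* 1 to 5 and *Chrna1* 2 to 10 per library, and these 4 did not pass the filter.
Of the 6 kidney genes tested, 0 passed in WD vs. CD with edgeR, DESeq2 or limma-voom, beside 9.65% of all 17120 genes with edgeR, and 1 had an unadjusted p under 0.05, beside 4263 of all genes, which is no larger a share. That gene was *Rapsn*, at 0.759, 0.804, 1.20, 0.748 and 1.02 CPM in CD and 1.34, 1.03, 1.57, 1.5 and 1.03 CPM in WD. Its groups overlap, and its log2 fold change was 0.51 (standard error 0.18, adjusted p = 0.073 with edgeR). Without CD replicate 3 it was 0.64 with an adjusted p of 0.036 (edgeR), within a range of 0.036 to 0.17 over all alternatives.
The 3 genes that stood apart in muscle gave -0.03 (*Chrna2*, edgeR adjusted p = 0.96), -0.38 (*Dok7*, 0.28) and -0.50 (*Chrne*, 0.32) in kidney, with 95% intervals of -0.54 to 0.49, -0.83 to 0.07 and -1.12 to 0.13. The muscle estimates of *Chrna2* and *Dok7* lie above these kidney intervals and that of *Chrne* lies inside its own, and the difference between tissues was not tested. *Lrp4* (0.02, edgeR adjusted p = 0.90) and *Chrnb1* (0.01, 0.94) had intervals of -0.12 to 0.16 and -0.15 to 0.17.
In WD + CHP vs. WD, 0 of the 6 passed with edgeR, DESeq2 or limma-voom, beside 0.105% of all genes, and 0 had an unadjusted p under 0.05. The log2 fold changes were 0.28 for *Chrna2*, 0.00 for *Chrnb1*, -0.02 for *Lrp4*, -0.12 for *Dok7*, -0.20 for *Rapsn* and -0.31 for *Chrne*. Between WD + CHP and CD, 0 passed with any of the 3 tools, beside 12.1% of all genes, and 2 had an unadjusted p under 0.05, beside 4693 of all 17120 genes. These were *Chrne* (-0.81, edgeR adjusted p = 0.098), at 6 to 20 counts per CD library and 4 to 10 per WD + CHP library, and *Dok7* (-0.50, 0.14). The *Chrne* difference passed without CD replicate 4, at -0.98 (edgeR adjusted p = 0.034), within a range of 0.034 to 0.24 over all alternatives.

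**Figure D5:**
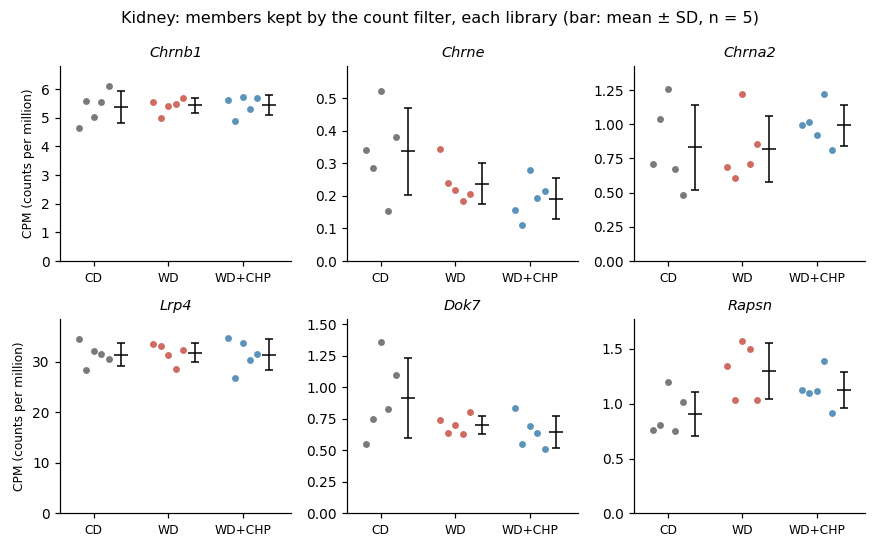
CPM of the 6 genes that passed the filter in kidney, in each library (points, 5 per group) with the group mean ± SD (bars), on axes that start at 0. The groups overlap for every gene, *Lrp4* has means of 31.4 to 31.9 CPM in the 3 groups, and *Rapsn* has 4 of its 5 lowest libraries in CD.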

How the data were processed

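RNA-seq of 15 gastrocnemius and 15 kidney libraries (5 each of CD, WD and WD + CHP) was analysed from the raw counts that the authors deposited, whole numbers of reads per gene without normalisation. The authors enriched RNA for polyA, sequenced it on BGISEQ-500, cleaned reads with SOAPnuke and aligned them with STAR (2.7.3a in the submitters' processing notes, which name GRCm38 and mm10). The counting tool, annotation and strand setting are not given in the sources used here. All 30 columns were matched to samples by their labels, and 99.4% of gastrocnemius and 99.8% of kidney gene identifiers were found in GENCODE M21, the source of positions and exon lengths.

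filterByExpr (minimum count 10) selected the genes of each tissue, TMM scaled them, and all 3 groups entered a single quasi-likelihood model (edgeR 4.0.16, limma 3.58.1 and DESeq2 1.42.0 in R 4.3.3; plots in Python 3.11.15 with matplotlib 3.10.9). WD vs. CD, WD + CHP vs. WD and WD + CHP vs. CD were each tested two-sided at 0.05, with p-values adjusted by Benjamini-Hochberg across the genes of that tissue. Log2 CPM used a prior count of 2, and a standard error is the fold change divided by the root of F. No library was a copy of another, as counts within a group differed far more than sampling allows (chi-square per gene 9.06 to 75.7). Counting limits the precision of low genes.

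The members and lists were chosen with earlier results of these data known. Named are the members in muscle, the junction genes called in at least 1 muscle comparison with *Agrn*, *Ache*, *Colq*, *Myog*, *Ncam1*, *Etv5* and *Erbb3*, up to 3 most alike genes per member (mean log2 CPM of at least 1), markers that moved with a result, and members in kidney. A further gene of this rule is not reported here. On counts simulated for WD vs. CD over 15419 gastrocnemius genes, the model called 49 of 100 genes changed by 0.5 and 75 of 100 changed by 1 on the log2 scale, and 0 between unchanged groups. Over 17120 kidney genes it called 53 and 86 of 100. The alternatives replaced the test (DESeq2 or limma-voom), the scaling (size factors of DESeq2 or total count), the filter (none, or at least 10 counts in every library), the threshold (0.1) and the samples (2 groups only, or 1 library left out), or added the replicate number to the model.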

Additional observations from a re-analysis of the deposited data

Results flagged for a closer look

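In 108 groups of 5 libraries examined for the members and the named junction genes, 3 held a library far from the others by Dixon's test (the gap to the nearest library over the whole range, limit 0.71), and chance alone marks about 1 group in 20. *Chrng* in gastrocnemius of WD + CHP was highest in replicate 2, at 0.248 CPM (13 counts), with the next library at 0.0763 CPM. *Chrna4* in gastrocnemius of WD was highest in replicate 3, at 0.439 CPM (24 counts), with the next at 0.191 CPM. *Slc5a7* in gastrocnemius of CD was highest in replicate 3, at 0.175 CPM (9 counts), with the next at 0.0378 CPM. All 3 rest on few counts.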

How the results depend on the processing

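The 27 fold changes of the members in gastrocnemius moved by less than 1 SD in all 486 values from the alternatives. The SD is that of log2 CPM between replicates, pooled over the 3 groups. Leaving out 1 of 5 libraries could hardly move a fold change that far, so for those fits the limit shows nothing about stability. In 30 of these values the sign changed, in 9 fold changes of -0.06 to 0.09 on the log2 scale, and 2 genes changed call (*Chrnb1* and *Chrne*, given above). Of 676 values for the named junction genes, 609 kept direction and call, 46 lost a call, 10 gained one and 11 changed sign. Of 242 values for the members in kidney, 222 kept both, 2 gained a call and 18 changed sign. Why calls changed was not tested, beyond there being fewer samples when a library is left out.

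Over all gastrocnemius genes, 1330 passed in WD vs. CD, 63 in WD + CHP vs. WD and 1450 in WD + CHP vs. CD. An adjusted p under 0.1 gave 2193 and 2429 in the first and last. In WD + CHP vs. WD, DESeq2 gave 249 and no filter 40. Single libraries left out gave 965 to 1421, 12 to 92 (lowest without WD + CHP replicate 5, highest without WD replicate 4) and 873 to 1617 (lowest without WD + CHP replicate 3). Total count scaling changed the split from 720 higher and 610 lower to 1506 and 346 in WD vs. CD, and from 10 and 53 to 0 and 54 in WD + CHP vs. WD, with the median gene shifted to 0.07 and -0.06.
In kidney, 1652, 18 and 2070 genes passed, and 2647, 75 and 3232 at 0.1. For WD + CHP vs. WD the count was 194 with DESeq2, 37 with no filter, 0 with only the 2 groups (edgeR) and 0 to 97 with a library left out (0 without any of WD replicates 1, 4 and 5 and WD + CHP replicates 3 and 4, 97 without WD replicate 2). Leave-one-out counts were 1142 to 1744 in WD vs. CD and 1202 to 2150 in WD + CHP vs. CD. Total count scaling gave 631 higher and 970 lower in place of 791 and 861 in WD vs. CD, and 660 and 1814 in place of 1070 and 1000 in WD + CHP vs. CD.
Among the junction genes, 10, 0 and 8 passed with edgeR, and 17 in WD vs. CD and 14 in WD + CHP vs. CD at 0.1. In WD + CHP vs. WD, 1 passed with DESeq2 (*Slc5a7*) and 1 with only the 2 groups (*Sntb1*). Of the members in kidney, 1 passed at 0.1 in WD vs. CD and 1 in WD + CHP vs. CD, and leaving out a library gave 0 to 1 in both.

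The *Chrng* share, 0.441%, 0.512% and 0.658% as a mean over CD, WD and WD + CHP libraries, was 0.180%, 0.209% and 0.269% per length, since the merged exons of *Chrng* are the longer. Leaving out a library gave 0.395% to 0.525%, 0.418% to 0.595% and 0.364% to 0.780%.

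The tested results that changed sign had fold changes of -0.07 to 0.12 on the log2 scale. Under total count scaling, kidney *Chrnb1* was -0.0061 in WD vs. CD and -0.030 in WD + CHP vs. WD. With limma-voom, kidney *Chrna2* in WD vs. CD was 0.011. With a library left out, *Erbb3* (-0.14 to 0.011) crossed 0 in WD vs. CD, as did *Chrna4* (-0.13 to 0.60), *Gadd45a* (-0.13 to 0.086) and *Pak1* (-0.093 to 0.042) in WD + CHP vs. WD. In kidney, *Lrp4* (-0.010 to 0.060), *Chrna2* (-0.21 to 0.17) and *Chrnb1* (-0.031 to 0.067) did so in WD vs. CD, and *Lrp4* (-0.054 to 0.034) and *Chrnb1* (-0.020 to 0.041) in WD + CHP vs. WD.

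Replicate numbers gave no sign of pairing the samples. Each group's mean was removed from log2 CPM, and libraries of different groups were then correlated over the genes that passed the filter. Those with 1 number correlated at -0.13 to 0.15 in gastrocnemius and -0.09 to 0.14 in kidney, over 0.1 in 2 of 15 pairs of each. The medians were 0.0054 and 0.011, against 0.0020 and -0.0030 for libraries with different numbers. In gastrocnemius 3 and in kidney 4 of 15 libraries correlated best with their own number. With the replicate block, 1147, 44 and 1242 genes passed in gastrocnemius, 1582, 70 and 1970 in kidney, 9, 0 and 8 junction genes (2 higher and 6 lower in the last, against 3 and 5 without it), and 0 kidney members. Depth limits *Chrng*, *Chrna4* and *Slc5a7*, which rest on few counts.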

Other observations

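Tendon markers were lower in WD + CHP than in CD. Their summed level (*Tnmd*, *Scx*, *Mkx*, *Fmod*, *Thbs4* and *Kera*) was 303 to 643 CPM in CD, 229 to 648 in WD and 193 to 279 in WD + CHP, and in WD + CHP vs. CD 6 of 6 lay below 0 with 3 past an adjusted p of 0.05 (edgeR). In WD + CHP vs. WD 5 of 6 lay below 0, with 0 past the adjusted threshold and 5 at an unadjusted p under 0.05 (edgeR). Over all 15419 genes, 9.40% passed in WD + CHP vs. CD, and 1929 had an unadjusted p under 0.05 in WD + CHP vs. WD. Satellite cell markers summed to 42.4 to 49.7 CPM in CD, 42.2 to 46.0 in WD and 40.8 to 44.9 in WD + CHP. Of the 6, 1 passed lower in WD than in CD, beside 3.96% of all genes lower. This was *Spry1* (20.3 ± 0.416 against 22.9 ± 0.731 CPM, SD, n = 5; log2 fold change -0.17, edgeR adjusted p = 0.046). Macrophage markers summed to 30.1 to 51.6, 32.5 to 55.2 and 25.7 to 47.6 CPM, and endothelial markers to 231 to 274, 203 to 257 and 213 to 246 CPM in the same order.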
